A study of Mus musculus with 71 samples.

Results

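The miR-17~92 allele that keeps only the miR-19 family was compared with wild type in the tail bud of mouse embryos, using 6 of the 71 RNA-seq libraries of an allelic series. The members were chosen by sample label: 3 tail bud libraries labelled Delta_17_18_92 (written Δ17,18,92 here) and 3 tail bud libraries labelled Wild-type. The series covered 8 genotypes of the locus in 3 dissected parts of the embryo (heart, tail bud and the remaining embryo), in 24 groups. Δ17,18,92 embryos lack miR-17, miR-18a, miR-20a and miR-92a-1, while wild-type embryos carry the intact cluster. All embryos were C57BL/6 at embryonic day 9.5 with 20 to 22 somites, and RNA was extracted with TRIZOL and read as single reads of 50 bases. Whether the alleles were carried on 1 or both chromosomes was not given, and the series text calls the replicates biological triplicates. The values are read counts per gene, shown as CPM (the count scaled to a common library size) after TMM scaling, a correction for library composition. The tail bud groups Δ17,18 and Full-KO served for direct tests: the former also keeps miR-92a-1 and the latter lacks the whole cluster, with 3 libraries each.

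The miR-17~92 cluster is a single primary transcript that is cut into several mature microRNAs. A microRNA guides an Argonaute protein to messenger RNAs whose 3′ untranslated region (3′ UTR) pairs with its seed, which lowers the stability and translation of those messages. The tail bud holds the axial progenitors that extend the spine and trunk, and loss of the human cluster causes a form of Feingold syndrome with skeletal anomalies.

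The mature sequences show which seeds the allele lost and which it kept (RefSeq, GRCm38.p6, plus strand of chromosome 14, 5′ to 3′). Capitals mark the seed, bases 2 to 8.
mmu-miR-17-5p (lost): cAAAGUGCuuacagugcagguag
mmu-miR-20a-5p (lost): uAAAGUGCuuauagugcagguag
mmu-miR-18a-5p (lost): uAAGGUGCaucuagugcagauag
mmu-miR-92a-3p (lost): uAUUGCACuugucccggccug
mmu-miR-19a-3p (kept): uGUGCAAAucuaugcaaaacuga
mmu-miR-19b-3p (kept): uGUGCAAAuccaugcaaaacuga
The 6 microRNAs carry 4 seeds. miR-17-5p and miR-20a-5p share AAAGUGC, and the miR-19 pair shares GUGCAAA. They span chr14:115043684-115044496 in GRCm38.p6, inside the host gene Mir17hg (chr14:115042879-115046727).

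Genes were grouped by 8mer matches in the longest annotated 3′ UTR of each gene (GENCODE M21 transcripts, GRCm38, sense strand only). An 8mer pairs with the 7 seed bases and has A opposite base 1: GCACTTTA for miR-17, GCACCTTA for miR-18, GTGCAATA for miR-92 and TTTGCACA for miR-19. A miR-19 7mer-m8 match, which lacks the final A, can share the bases GCAC with a miR-17 or miR-18 8mer. Of 13997 tested genes with an annotated 3′ UTR, 4.42% held a miR-17 8mer, 1.72% a miR-18 8mer, 2.78% a miR-92 8mer and 5.91% a miR-19 8mer. The sites below belong to genes described in the results, with the 8mer in capitals.
Fndc3b, miR-17 site: gacacacgagccgacaGCACTTTAttctct
Fndc3b, miR-92 site: actttaagagggcattGTGCAATAgttagt
Znfx1, first miR-17 site: ccctgcgctagagtaaGCACTTTAccccca
Znfx1, second miR-17 site: tttttgtctttactatGCACTTTAacctat
Xylt2, miR-18 site: gaggagccggggaattGCACCTTAcagaca
Man2a1, miR-92 site: ccgtccttggtttaacGTGCAATAactaag
Itga5, miR-92 site: ttaaactctgttgcaaGTGCAATAaacccc
Acadm, miR-19 site: attatatttgctttgtTTTGCACAaaagag
Rnf11, first miR-19 site: agtagttttaagcttgTTTGCACAgttctt
A match describes the sequence and does not show that the site is used.

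The 6 libraries held 15134178 to 27451024 counts, and wild-type replicate 3 stood apart. It had the lowest total (the next was 20798274), and its chi-square per degree of freedom was 21 and 24.6 against wild-type replicates 1 and 2, which differed by 8.66. The 3 pairs among the Δ17,18,92 libraries gave 4.51 to 12.6. Relative to the other wild-type libraries its genes with 3′ UTRs under 1000 bases were higher by a median of 0.078 on the log2 scale, and those with 3′ UTRs of at least 2000 bases had a median difference of -0.069. Xist, the X-inactivation RNA of females, was at 3.52, 2116.7 and 52.0 CPM in the wild-type libraries and 5.78, 4.35 and 1668 CPM in the Δ17,18,92 libraries. Each group thus held 1 library with high Xist, and wild-type replicate 3 held a low level of it together with the Y-linked Ddx3y (70.2 CPM). Markers of axial progenitors summed to 2989 to 3296 CPM in wild type and 2703 to 3042 CPM in Δ17,18,92, and all 19 passed the filter on low counts. Markers of cardiomyocytes summed to 31.5 to 54.3 CPM over both groups. Markers of primitive red cells summed to 3954, 5882 and 5056 CPM in wild type and 2816, 1572 and 3207 CPM in Δ17,18,92, without overlap, and their part in the results below was not tested. None of these 12 genes passed the edgeR test, and their median log2 fold change was -0.83.

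Between Δ17,18,92 and wild type, 947 of 17009 tested genes (5.57%) differed at an adjusted p under 0.05 (edgeR). Of these, 648 were higher (3.81%) and 299 were lower (1.76%) in Δ17,18,92. The changes were small: the median absolute log2 fold change of the 947 genes was 0.31, and the median over all tested genes was -0.009. Every Δ17,18,92 library lay above every wild-type library in 1909 genes (11.2%) and below in 1619 (9.52%). In bulk tissue, fewer cells of a type and less RNA per cell cannot be told apart. The count leaned on wild-type replicate 3: without it 418 genes were higher and 82 lower, and 375 of the 648 and 64 of the 299 stayed past the threshold. In all 6 fits that leave out 1 library, 293 of the higher and 34 of the lower genes kept their call. The total ran from 472 genes without Δ17,18,92 replicate 1 (475 without replicate 2) to 2032 without wild-type replicate 2. A fit of only these 6 libraries called 77 genes higher and 2 lower. The same restriction raised the counts of the direct tests, from 114 to 181 against Δ17,18 and from 58 to 104 against Full-KO. Why the counts moved was not tested.

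The host transcript Mir17hg (ENSMUSG00000089726), from which the cluster is cut, had the largest rise among genes past the threshold whose log2 CPM averaged 2 or more. It was at 132, 142 and 111 CPM in the wild-type libraries and at 413, 412 and 437 CPM in the Δ17,18,92 libraries. The groups were far apart, a 3.27-fold difference (log2 fold change 1.71 ± 0.07 SE, adjusted p = 2.12e-14, edgeR). The 6 hairpin genes were listed at 0 in every library, so the counts do not show which hairpins each embryo carries. On the same chromosome, Gpc6, a glypican of the cell surface, was at 86.9, 93.4 and 77.1 CPM in wild type and 105, 97.9 and 98.1 CPM in Δ17,18,92. It rose by 0.22 ± 0.06 (adjusted p = 0.0179, edgeR), a call that ended without wild-type replicate 3 (0.102) or Δ17,18,92 replicate 1 (0.114). Gpc5 was near the detection limit, with 0 to 0.6 CPM in the 6 libraries.

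**Figure D1:**
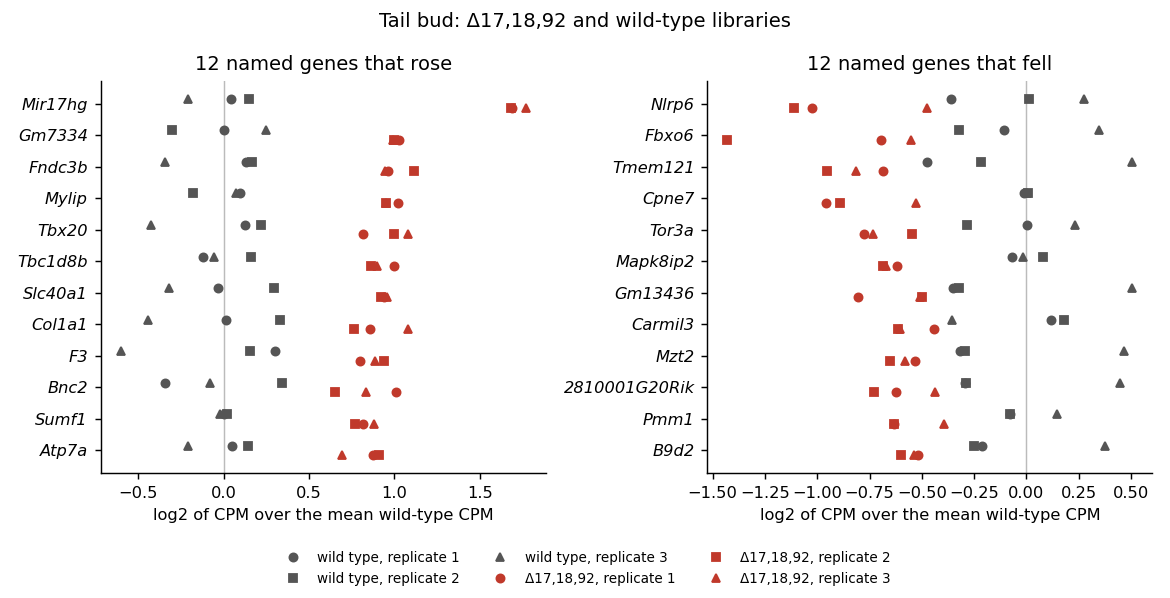
Each point is 1 tail bud library, as log2 of its CPM over the mean CPM of the 3 wild-type libraries; grey is wild type, red is Δ17,18,92, and circles, squares and triangles are replicates 1, 2 and 3. Genes past the threshold whose log2 CPM averaged 2 or more are ordered by fitted fold change, from Mir17hg (1.71) down to Atp7a (0.82) on the left and from Nlrp6 (-0.82) to B9d2 (-0.53) on the right, and the genes were selected to have no overlap between the groups.

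The named genes were ranked by the size of their change, taking genes past the threshold whose log2 CPM averaged 2 or more and whose groups did not overlap, so genes of lower counts with larger fitted changes are left out. The 12 with the largest rise were Mir17hg, a pseudogene and 10 protein-coding genes. Of the 10, 5 hold an 8mer of a lost family, where 8.48% of tested genes with a 3′ UTR do. Fndc3b, a fibronectin type III domain protein (chr3:27416162-27711307, GRCm38), was at 95.5, 97.9 and 68.7 CPM in wild type and 170, 189 and 168 CPM in Δ17,18,92. It doubled, by 1.00 ± 0.08 on the log2 scale (adjusted p = 5.25e-08, edgeR), and its 3′ UTR holds the miR-17 and miR-92 sites shown above. Mylip, a ubiquitin ligase that sends the LDL receptor for degradation, was at 47.9, 39.5 and 47.1 CPM in wild type and 91.1, 86.6 and 86.7 CPM in Δ17,18,92 (0.98 ± 0.11, adjusted p = 1.09e-05). Its 3′ UTR carries 8mers of miR-92 and of the kept miR-19. Slc40a1, the iron exporter ferroportin with a miR-18 8mer, went from 13.3, 16.7 and 10.9 CPM to 26.1, 25.8 and 26.5 CPM (0.92 ± 0.12, adjusted p = 3.18e-05). Atp7a, a copper-transporting ATPase, went from 146, 156 and 122 CPM to 259, 265 and 228 CPM (0.82 ± 0.06, adjusted p = 1.05e-08). All 4 genes kept their call in each fit without 1 library.

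The other genes of this group rose by 0.82 to 1.02 on the log2 scale. Tbc1d8b, a Rab GTPase-activating domain protein, rose by 0.92, Sumf1, which activates sulfatases, by 0.82, and F3, the coagulation initiator tissue factor with 8mers of miR-17 and miR-19, by 0.84. The pseudogene Gm7334 rose by 1.02, and its reads may be shared with a near-identical parent gene. The calls of 3 genes depended on single libraries. Tbx20, a T-box factor of heart and lateral mesoderm with a miR-92 8mer, went from 17.0, 18.1 and 11.6 CPM to 27.4, 31.1 and 32.9 CPM (0.95 ± 0.21, adjusted p = 0.0107, edgeR). Its adjusted p was 0.0756 without wild-type replicate 3. Col1a1, a chain of type I collagen, rose by 0.90 and Bnc2, a zinc-finger protein, by 0.83. Both lost the call without wild-type replicate 3 (0.142 and 0.14) and also without wild-type replicate 1 or any 1 of the Δ17,18,92 libraries, with adjusted p from 0.0519 to 0.135.

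By the same rule, the 12 genes with the largest fall were 10 protein-coding genes, a pseudogene and an antisense gene. None of the 10 holds an 8mer of a lost family, which is near the 8.48% of tested genes with a 3′ UTR that do. Nlrp6, an innate immune NOD-like receptor, was at 7.72, 10.0 and 12.0 CPM in wild type and 4.87, 4.59 and 7.12 CPM in Δ17,18,92 (-0.82 ± 0.18, adjusted p = 0.00635, edgeR). Cpne7, a calcium-dependent membrane-binding copine, went from 6.94, 7.05 and 7.02 CPM to 3.61, 3.77 and 4.85 CPM (-0.77 ± 0.17, adjusted p = 0.00606). Pmm1, a phosphomannomutase, went from 19.5, 19.5 and 22.8 CPM to 13.3, 13.3 and 15.7 CPM (-0.54 ± 0.10, adjusted p = 0.000918). These 3 genes stayed past the threshold in each fit without 1 library, as did Fbxo6, an F-box protein (-0.81), Tor3a, a torsin ATPase (-0.67), and the JNK scaffold gene Mapk8ip2 (-0.66). The other 6 did not. Tmem121 (-0.78), Mzt2 (-0.57), the pseudogene Gm13436 (-0.57), the antisense gene 2810001G20Rik (-0.56) and the ciliary gene B9d2 (-0.53) lost the call without wild-type replicate 3, where adjusted p ran from 0.0573 to 0.388. All but Mzt2 also lost it without Δ17,18,92 replicate 2, with adjusted p from 0.0684 to 0.151. Gm13436, 2810001G20Rik and B9d2 lost it without Δ17,18,92 replicate 1 too (0.195, 0.133 and 0.101), and Gm13436 and B9d2 without replicate 3 (0.0637 and 0.0771). In wild-type replicate 3 the 299 lower genes were higher by a median of 0.245 than in the other wild-type libraries. Carmil3, a regulator of actin capping (-0.57), lost the call without each library except wild-type replicate 3, with adjusted p from 0.0634 to 0.117.

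The share of genes that rose was highest among genes with seed matches of the lost families, and it was near that of genes with no match among those with miR-19 matches only. Of 618 tested genes with a miR-17 8mer, 158 rose (25.6%) and 1 fell, with a median log2 fold change of 0.156. Of 389 with a miR-92 8mer, 92 rose (23.7%) and 0 fell (median 0.165). Of 241 with a miR-18 8mer, 37 rose (15.4%) and 1 fell (median 0.099). These classes include genes that also match another family; with no match of the other families the shares that rose were 23.5% for miR-17, 14.8% for miR-92 and 7.81% for miR-18, with medians of 0.140, 0.148 and 0.077. Among all tested genes 3.81% rose, and among the 9340 with no match of any of the 4 families 135 rose (1.45%) and 225 fell (median -0.033). Of 462 genes with a miR-19 8mer and no match of a lost family, 9 rose (1.95%) and 6 fell (median 0.001). Without wild-type replicate 3 the numbers that rose were 111 for miR-17, 29 for miR-18, 61 for miR-92 and 6 for miR-19 only, and of the genes with no match 83 rose and 56 fell. The medians were then 0.134 for miR-17, 0.067 for miR-18, 0.133 for miR-92, -0.005 for the miR-19 genes and -0.018 for genes with no match.

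The share that rose grew with the number of sites up to 2. It was 2.87% with no 8mer of a lost family, 20.4% with 1 and 40% with 2, while among the 11 genes with 3 or more it was 36.4%. The median log2 fold changes in the same order were -0.015, 0.135, 0.242 and 0.330. Genes with matches also had longer 3′ UTRs: the median was 2130 bases in genes that rose, 780 in genes that fell and 1189 over tested genes. Split by length, 38 of 166 genes with a lost-family 8mer in a 3′ UTR under 1000 bases rose (22.9%, median 0.180), against 49 of 5398 with no match (0.908%, median -0.057). In 3′ UTRs of at least 2000 bases the shares were 21.7% (161 of 741, median 0.140) and 2.54% (41 of 1616, median 0.003). Without wild-type replicate 3, whose values varied with 3′ UTR length, 30 short and 113 long genes with a lost-family 8mer rose (medians 0.158 and 0.103). Of the genes with no match, 38 short and 23 long ones then rose (medians -0.023 and -0.010). Of the 629 genes that rose and had an annotated 3′ UTR, 261 (41.5%) held an 8mer of a lost family, against 8.48% of tested genes and 1 of 268 that fell. When 7mer-m8 matches, which pair with the seed but lack the final A, were added, the share was 75.4% of those that rose and 26.1% of tested genes.

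**Figure D2:**
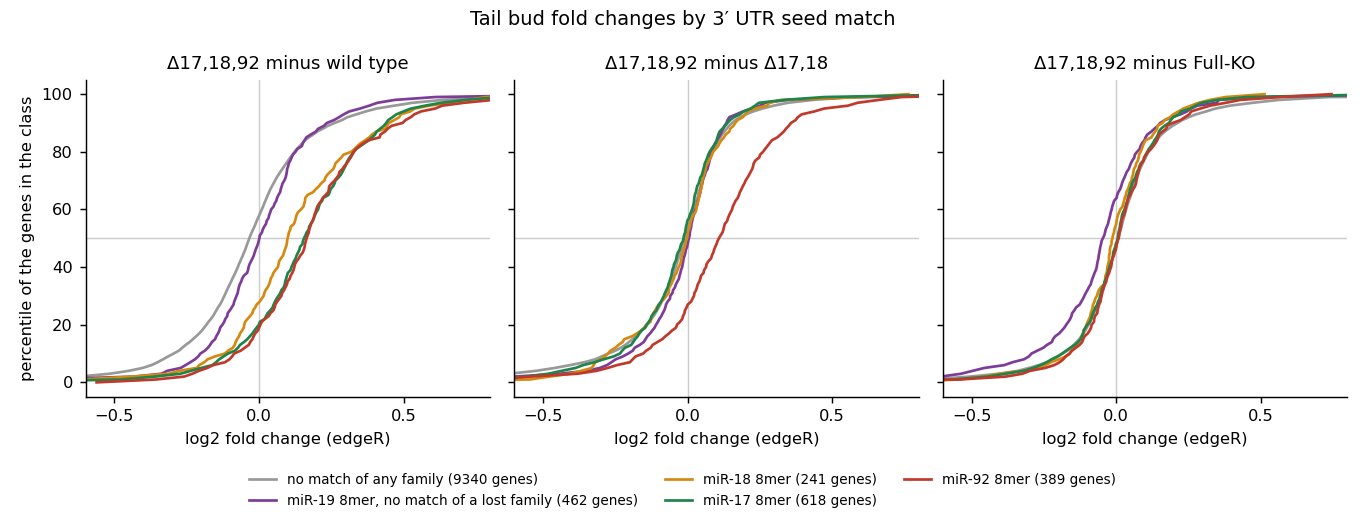
Percentile (vertical axis) against edgeR log2 fold change (horizontal axis) for tested genes grouped by 3′ UTR seed match, in 3 tail bud comparisons of Δ17,18,92. Against wild type the curves of the miR-17, miR-18 and miR-92 classes lie to the right of the no-match curve, with medians of 0.156, 0.099 and 0.165; against Δ17,18 the miR-92 class stands apart (median 0.108), and against Full-KO the miR-19 class lies to the left (median -0.046).

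The genes named for each family were those with the smallest p, so close replicate values were part of their selection. Znfx1, a helicase of RNA surveillance with a pair of miR-17 8mers, was at 33.0, 33.4 and 28.3 CPM in wild type and 54.7, 54.3 and 52.5 CPM in Δ17,18,92 (0.76 ± 0.06, adjusted p = 1.05e-08, edgeR). Xylt2, a xylosyltransferase that starts glycosaminoglycan chains, has 8mers of miR-18 and miR-92 and went from 47.8, 47.4 and 52.9 CPM to 71.9, 72.3 and 68.5 CPM (0.53 ± 0.06, adjusted p = 2.86e-06). Itga5, a subunit of the fibronectin receptor with a miR-92 8mer, went from 144, 145 and 141 CPM to 191, 195 and 197 CPM (0.44 ± 0.04, adjusted p = 6.94e-07). None of these groups overlapped, and each call held in every fit without 1 library. The ankyrin repeat gene Ankrd13c (0.45) and the ataxin-like Atxn1l (0.39) carry miR-17 8mers, Zfp651 (0.57) and Ptgfrn (0.49) miR-18 8mers, and the Golgi mannosidase gene Man2a1 (0.56) a miR-92 8mer. Atxn1l also holds 8mers of miR-18 and miR-19, and Zfp651 also holds a miR-17 8mer. The calls of all these genes held likewise.

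Of the 9 genes that rose with a miR-19 8mer and no match of a lost family, 4 are named by smallest p. Igf2r, the receptor that clears IGF2, was at 962, 990 and 751 CPM in wild type and 1136.7, 1170.4 and 1196.8 CPM in Δ17,18,92 (0.37 ± 0.07, adjusted p = 0.00091, edgeR). Gpr137b, a lysosomal membrane protein, went from 4.5, 5.91 and 5.16 CPM to 8.78, 7.73 and 7.23 CPM (0.60 ± 0.13, adjusted p = 0.00637). The scaffold gene Cnksr2 rose by 0.38 and B3glct, a glucosyltransferase, by 0.30. In each of the 4, every Δ17,18,92 library lay above every wild-type library, as in 11.2% of all tested genes. Selection by smallest p favours such separation, so it is not added support.

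**Figure D3:**
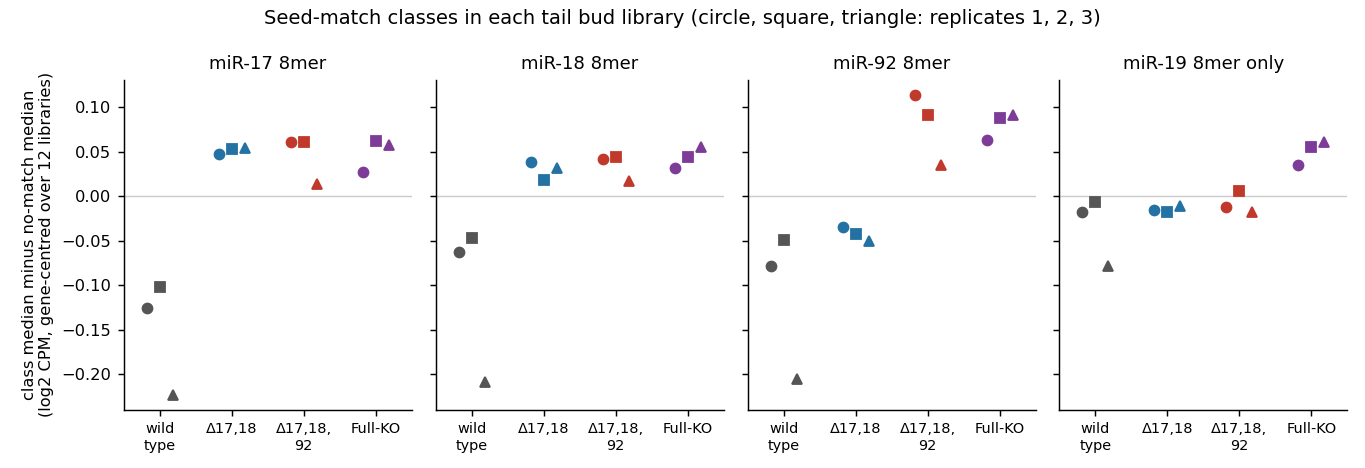
Each point is 1 tail bud library: the median of a seed-match class minus the median of genes with no match, on log2 CPM centred per gene over the 12 libraries; colours are the 4 genotypes and symbols the replicates. For miR-92 8mer genes the Δ17,18,92 libraries (0.114, 0.091 and 0.035) lie above all Δ17,18 libraries (-0.035, -0.042 and -0.050), and wild-type replicate 3 is the lowest library for each class.

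A list of 24 published targets of the cluster was described next. It was compiled from knowledge of other systems but with earlier results of these data known, so it is not an independent check. Of the 24, 11 rose and 0 fell, with a median log2 fold change of 0.27, where 3.81% of all tested genes rose and 1.76% fell (median -0.009). Without wild-type replicate 3, 5 of the 24 rose, and 418 of all genes. Bcl2l11, the pro-apoptotic BIM, was at 58.1, 63.2 and 61.7 CPM in wild type and 75.8, 73.1 and 70.7 CPM in Δ17,18,92 (0.26 ± 0.05, adjusted p = 0.00211, edgeR). Hif1a, a hypoxia-regulated transcription factor, went from 289, 280 and 278 CPM to 330, 359 and 341 CPM (0.28 ± 0.05, adjusted p = 0.000333). E2f1, a cell cycle transcription factor, went from 61.1, 57.5 and 54.3 CPM to 72.9, 70.8 and 80.2 CPM (0.37 ± 0.06, adjusted p = 0.000513). In all 3 the groups were separate and the call held without any single library. Every Δ17,18,92 library lay above every wild-type library in 11.2% of all tested genes. Hif1a and E2f1 were named by small p, which favours such separation. Cdkn1a, the p21 cell cycle inhibitor, was at 24.4, 15.9 and 15.9 CPM in wild type and 24.2, 26.3 and 23.9 CPM in Δ17,18,92, overlapping groups.

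A pair of lists covered TGF-β and BMP signalling, which patterns mesoderm. Of 12 tested receptors 3 rose and 0 fell (median 0.094), and of 23 tested SMADs, ligands and inhibitors 6 rose and 1 fell (median 0.10), where 3.81% of all tested genes rose and 1.76% fell. Without wild-type replicate 3, 2 of the receptors and 4 of the other list rose. Bmpr2, the type II BMP receptor, was at 52.8, 57.9 and 48.6 CPM in wild type and 83.9, 78.8 and 62.8 CPM in Δ17,18,92 (0.50 ± 0.09, adjusted p = 0.00129, edgeR). Acvr1b, an activin receptor, went from 66.0, 67.7 and 60.3 CPM to 85.0, 80.1 and 76.1 CPM (0.31 ± 0.06, adjusted p = 0.00319). The receptor gene Tgfbr2 rose by 0.39 (adjusted p = 0.0299), but of the 6 fits without 1 library only that without wild-type replicate 2 kept it, and the others gave adjusted p from 0.0507 to 0.133. Of the signal carriers, Smad2 went from 85.7, 81.1 and 85.7 CPM to 98.3, 100 and 99.9 CPM (0.24 ± 0.05, adjusted p = 0.0021). The ligand gene Gdf11, which sets the position of the trunk-to-tail transition, went from 148, 127 and 134 CPM to 181, 173 and 158 CPM (0.32 ± 0.07, adjusted p = 0.00318). Wfikkn1, whose protein binds GDF11 and myostatin, went from 25.7, 24.4 and 26.1 CPM to 20.6, 20.1 and 21.8 CPM (-0.29 ± 0.08, adjusted p = 0.0267), a call that ended without wild-type replicate 1 (0.0563) or 3 (0.0837) and without Δ17,18,92 replicate 1 (0.102) or 2 (0.12). Pmepa1, an inhibitor induced by TGF-β, rose by 0.51 (0.117 without Δ17,18,92 replicate 1), and the inhibitor Smad7 by 0.29. Smad7 lost the call without wild-type replicate 3 (0.0614), Δ17,18,92 replicate 1 (0.137) or replicate 2 (0.0538).

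Of 24 tested E2F, cyclin, inhibitor and pocket protein genes, 4 rose and 3 fell (median 0.029), and 1 rose and 2 fell without wild-type replicate 3. For this and the lists that follow, the shares over all tested genes were 3.81% higher and 1.76% lower. The D-type cyclin gene Ccnd3 was at 128, 125 and 123 CPM in wild type and 87.8, 96.7 and 102 CPM in Δ17,18,92 (-0.39 ± 0.06, adjusted p = 0.000273, edgeR). Ccne1, cyclin E, went from 107, 102 and 107 CPM to 76.1, 82.8 and 87.1 CPM (-0.36 ± 0.07, adjusted p = 0.00284). Both calls held without any 1 library. The pocket protein gene Rbl2 went from 9.05, 11.2 and 7.35 CPM to 15.5, 13.9 and 13.8 CPM (0.63 ± 0.14, adjusted p = 0.00966). Its adjusted p was 0.0565 without wild-type replicate 3 and 0.0555 without Δ17,18,92 replicate 1. Of 15 replication genes 1 rose, the helicase subunit gene Mcm3 (0.22), and 2 fell, among them the helicase subunit gene Mcm5 (-0.27). The list median was -0.07, with 1 of the 15 above 0. Without wild-type replicate 3, 1 rose and 0 fell (median -0.068). Mcm5 lost the call without wild-type replicate 3 (0.0794) or Δ17,18,92 replicate 1 (0.0624). Mcm3 lost it without Δ17,18,92 replicate 3 (0.0672). Among 15 BCL2 family genes, Bcl2l11 and Mcl1 (0.20) rose and Bid (-0.37) fell. Mcl1 lost its call without wild-type replicate 2 (0.064), Δ17,18,92 replicate 2 (0.0583) or replicate 3 (0.101), and Bid without wild-type replicate 2 (0.0515), Δ17,18,92 replicate 1 (0.0867) or replicate 3 (0.0723). Btg2, an anti-proliferative p53 target, went from 92.3, 103 and 108 CPM to 141, 152 and 144 CPM (0.53 ± 0.09, adjusted p = 0.000998). Its 3′ UTR holds a pair of miR-92 8mers. Sesn1, a stress-response p53 target, fell by 0.30, a call lost without wild-type replicate 3 (0.228), Δ17,18,92 replicate 1 (0.057) or replicate 2 (0.146). These were the genes past the threshold among 15 of the p53 response.

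In the lists of the tail bud's own patterning systems, 2 of 37 Hox, 1 of 19 axial progenitor and 2 of 18 Notch genes passed, where 5.57% of all tested genes did, so these counts are near the share over all genes. Of 37 tested Hox genes 2 rose, Hoxa13 (18.3, 22.2 and 21.3 CPM in wild type against 27.3, 23.1 and 27.4 CPM) and Hoxa5 (0.26). Both lost the call without wild-type replicate 3 (0.0692 and 0.182) and without Δ17,18,92 replicate 1 (0.176 and 0.184). Hoxa13 also lost it without wild-type replicate 1 (0.144) or Δ17,18,92 replicate 3 (0.127), and Hoxa5 in each other fit except that without wild-type replicate 2. Of 19 axial progenitor genes 1 fell, the RNA-binding pluripotency factor Lin28b, at 215, 209 and 203 CPM in wild type and 181, 194 and 186 CPM in Δ17,18,92. Its change was -0.16 ± 0.05 (adjusted p = 0.0423, edgeR), and only the fit without wild-type replicate 3 kept the call (0.0379). Of 18 Notch and segmentation clock genes 2 rose: the receptor gene Notch2 went from 157, 154 and 112 CPM to 186, 183 and 184 CPM (0.39 ± 0.09, adjusted p = 0.00866). The ligand gene Dll1 went from 156, 171 and 170 CPM to 219, 215 and 188 CPM (0.32 ± 0.08, adjusted p = 0.0246), a call lost without wild-type replicate 1 (0.0662) or 3 (0.0894) and without Δ17,18,92 replicate 1 (0.123) or 2 (0.0959). None of 15 WNT feedback, 17 FGF, 11 retinoic acid or 11 MYC network genes passed the edgeR test.

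The other lists are read against 3.81% of all tested genes higher and 1.76% lower. Of 11 genes of the microRNA machinery 3 rose, led by Argonaute gene Ago1 (244, 232 and 222 CPM in wild type, 283, 279 and 271 CPM in Δ17,18,92, 0.26 ± 0.05, adjusted p = 0.00114, edgeR). The silencing partner genes Tnrc6a (0.21) and Tnrc6b (0.32) lost the call without wild-type replicate 3 (0.162 and 0.257) and without Δ17,18,92 replicates 1 (0.108 and 0.196) or 2 (0.0868 and 0.105), and Tnrc6b also without wild-type replicate 1 (0.0624). Of 19 tested lipoprotein receptor and cholesterol genes, Mylip, the receptor genes Vldlr (0.63) and Lrp1 (0.37) rose and 0 fell. Lrp1 lost the call without wild-type replicate 3 (0.0593), Δ17,18,92 replicate 1 (0.0817) or replicate 2 (0.056). Vldlr went from 28.2, 23.8 and 26.5 CPM to 39.2, 40.7 and 41.9 CPM. Of 17 polycomb genes the methyltransferase gene Ezh1 rose, from 28.0, 29.4 and 28.7 CPM to 38.8, 37.3 and 39.8 CPM (0.43 ± 0.08, adjusted p = 0.00156). Of 9 tested somite derivative markers Pax3 rose (20.2, 19.9 and 15.8 CPM in wild type, 34.4, 26.8 and 23.4 CPM in Δ17,18,92), with adjusted p of 0.0962 without wild-type replicate 3 and 0.108 without Δ17,18,92 replicate 1. The markers of this list had a median log2 fold change of 0.46, with 8 of the 9 above 0. They summed to 59.8, 91.9 and 112 CPM in wild type and 169, 106 and 114 CPM in Δ17,18,92. Their part in the Pax3 result was not tested. Of 12 endothelial markers 1 rose, the adhesion gene Pecam1 (0.30), with a list median of 0.023 and 8 of the 12 above 0. Of 10 hindgut and notochord markers 1 rose, the epithelial cadherin gene Cdh1 (0.19), with a list median of 0.03 and 5 of the 10 above 0. Pecam1 lost the call in each fit without 1 library except that without wild-type replicate 2 (0.071 to 0.14), and Cdh1 without Δ17,18,92 replicate 1 (0.0884) or 2 (0.0834).

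The direct test against Δ17,18, in which miR-92a-1 is the microRNA that differs, separated genes with miR-92 sites. In Δ17,18,92, 94 genes were higher (0.553%) and 20 lower (0.118%) than in Δ17,18, 114 in all (0.67%, edgeR). Of the 91 higher genes with an annotated 3′ UTR, 50 (54.9%) held a miR-92 8mer, against 2.78% of tested genes, and 0 of the 19 lower ones did. The median log2 difference was 0.108 over the 389 genes with a miR-92 8mer, -0.014 over those with a miR-17 8mer and -0.005 over all tested genes. Atp7a was at 158, 151 and 153 CPM in Δ17,18, below the 228 to 265 CPM of Δ17,18,92 (0.70 ± 0.06, adjusted p = 3.72e-07), although no miR-92 8mer was found in its 311 annotated bases. Man2a1 was at 124, 119 and 111 CPM in Δ17,18 against 182, 186 and 165 CPM (0.59 ± 0.05, adjusted p = 3.98e-07). Itga5 differed by 0.37 and Lhfpl2, a membrane protein gene with a pair of miR-92 8mers, by 0.58. Mir17hg was at 268, 263 and 248 CPM in Δ17,18 and was higher in Δ17,18,92 by 0.70 ± 0.07 (adjusted p = 1.11e-06).

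Against wild type, 64 of these 94 genes were higher in Δ17,18,92, where 3.81% of all tested genes were. The 94 were chosen for higher values in the same Δ17,18,92 libraries than in the same Δ17,18 libraries. In Δ17,18 against the same wild-type libraries, 3 of the 94 were higher and 9 lower, where 8.31% of all tested genes passed (4.29% higher and 4.03% lower). Of the lower genes, Carmil3 was at 12.6, 18.8 and 20.8 CPM in Δ17,18 and 9.69, 8.6 and 8.67 CPM in Δ17,18,92 (-0.96 ± 0.15, adjusted p = 0.00141, edgeR). The RhoGAP gene Sh3bp1 differed by -0.39, the ciliary gene Bbs1 by -0.50 and Madd, a Rab exchange factor gene, by -0.38. Bbs1 lost the call without Δ17,18,92 replicate 3 (0.0816), and Madd without Δ17,18 replicate 1 (0.0529) or 2 (0.109) and without Δ17,18,92 replicate 2 (0.107) or 3 (0.17). The number of genes past the threshold dropped from 114 to 55 without Δ17,18 replicate 3, 62 without Δ17,18 replicate 2, 56 without Δ17,18,92 replicate 2 and 64 without replicate 3.

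**Figure D4:**
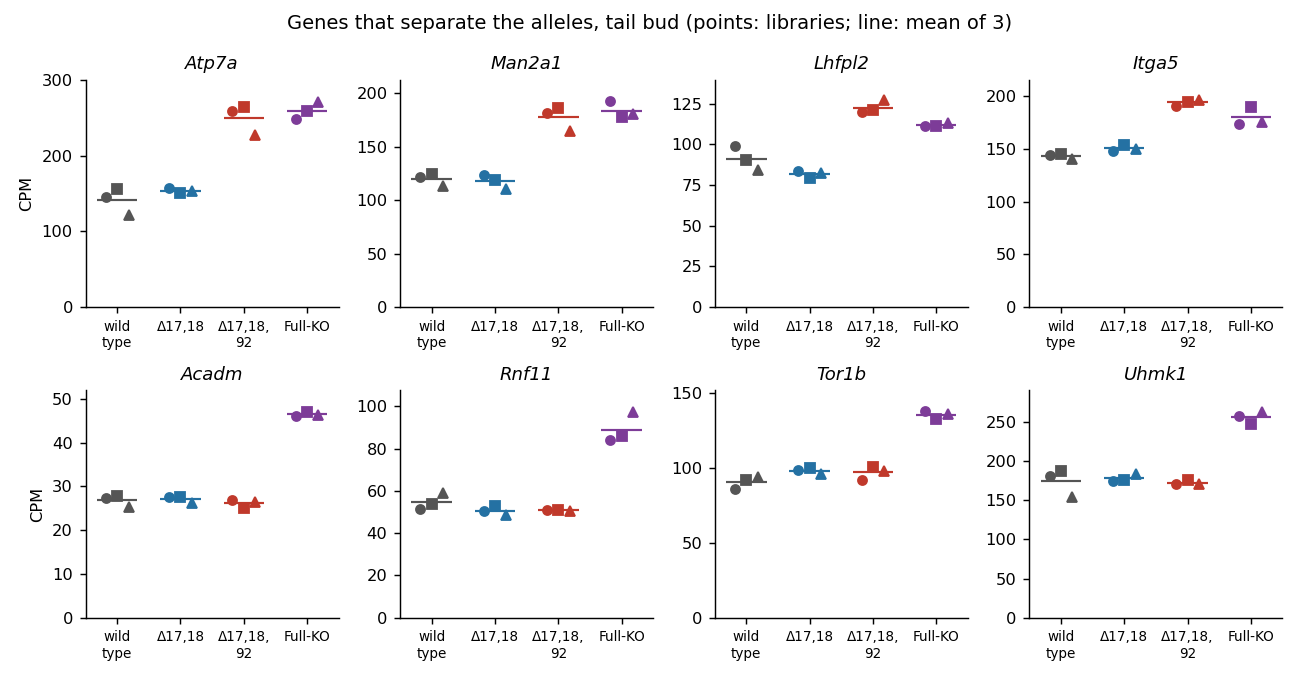
CPM (vertical axis, from 0) of 8 genes in the tail bud libraries of 4 genotypes; each point is a library, symbols mark the replicates and the line is the mean of 3. In the upper row Δ17,18,92 lies with Full-KO above wild type and Δ17,18, and in the lower row the Full-KO libraries lie above those of the 3 genotypes that keep miR-19.

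The direct test against Full-KO, which also lacks miR-19a and miR-19b-1, separated genes with miR-19 sites. In Δ17,18,92, 47 genes were lower (0.276%) and 11 higher (0.0647%) than in Full-KO, 58 in all (0.341%, edgeR). Of the 46 lower genes with an annotated 3′ UTR, 33 (71.7%) held a miR-19 8mer, against 5.91% of tested genes, and 0 of the 11 higher ones did. Acadm, the medium-chain acyl-CoA dehydrogenase of fatty acid oxidation, was at 27.4, 27.8 and 25.3 CPM in wild type, 27.0, 25.0 and 26.4 CPM in Δ17,18,92 and 46.2, 47.0 and 46.3 CPM in Full-KO. The difference of Δ17,18,92 from Full-KO was -0.83 ± 0.06 (adjusted p = 1.44e-08), while that from wild type was -0.04 (adjusted p = 0.749). Rnf11, a RING-finger ubiquitin ligase with a pair of miR-19 8mers, was at 50.8, 51.1 and 50.5 CPM in Δ17,18,92 and 84.0, 86.1 and 97.2 CPM in Full-KO (-0.81 ± 0.07, adjusted p = 3.44e-08). In both genes the 3 libraries of Δ17,18,92 lay with those of wild type and Δ17,18.

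Tor1b, a torsin ATPase, was at 92.1, 101 and 98.2 CPM in Δ17,18,92 and 138, 133 and 136 CPM in Full-KO (-0.48 ± 0.05, adjusted p = 1.21e-06, edgeR). Uhmk1, a kinase with no miR-19 8mer in its annotated 3′ UTR, was at 171, 176 and 170 CPM against 257, 247 and 263 CPM (-0.57 ± 0.06, adjusted p = 1.26e-06). Against wild type, 7 of the 47 genes were higher in Δ17,18,92 and 2 lower, where 3.81% and 1.76% of all tested genes were. In Full-KO against the same wild-type libraries 41 of the 47 were higher, where 10.4% of all tested genes passed (5.93% higher). The 47 were chosen for lower values in these Δ17,18,92 libraries than in these Full-KO libraries, so neither count is an independent check. Of the genes higher than in Full-KO, Wfikkn1 differed by 0.40, Mfap4, a microfibril protein gene, by 0.41, the growth-associated Tcf19 by 0.52 and Snn, which encodes stannin, by 0.29. Each lost the call without some libraries, with the highest adjusted p for Snn without Full-KO replicate 2 (0.0612), for Mfap4 and Wfikkn1 without Δ17,18,92 replicate 3 (0.11 and 0.127) and for Tcf19 without Full-KO replicate 1 (0.155). None of the 11 kept its call in each of the 6 fits without 1 library, whereas 22 of the 47 lower genes did. Without Full-KO replicate 1, 2 or 3 the number past the threshold went from 58 to 28, 36 and 30. Without Δ17,18,92 replicate 2 or 3 it went to 30 and 27.

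The effect of the combined allele was also compared with the sum of the effects of Δ17, Δ18 and Δ92, the alleles that lack 1 lost family each. On the log2 scale 1 gene departed from the sum (0.00588% of 17009, edgeR), Efcab7, an EF-hand protein gene of cilia. It was at 5.02, 5.67 and 4.63 CPM in wild type and 4.48, 5.03 and 4.41 CPM in Δ17,18,92, while its log2 fold changes were 0.61 in Δ17, 1.32 in Δ18 and 0.68 in Δ92. The departure was -2.77 ± 0.42 (adjusted p = 0.019), and it was 0.489 without wild-type replicate 3; 9 of 15 fits without 1 library lost it. DESeq2 called 2 genes, and 1475 genes had an unadjusted p under 0.05 in edgeR. The median standard error of this sum was 0.216 on the log2 scale, against 0.108 for the difference from Δ17,18. A call takes several standard errors, so departures well above 0.216 could also be missed. The low count therefore does not show that the effects add up. For Fndc3b the departure was -0.12 ± 0.16 and for Atp7a -0.08 ± 0.13.

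The same allele was also sampled in the other dissected parts, with 3 libraries per genotype in heart. The remaining embryo had 3 of wild type and 2 of Δ17,18,92. In a fit of 17 libraries, 237 of 17993 genes passed in heart (1.32%; 191 higher, 1.06%, and 46 lower, 0.256%). In the remaining embryo 324 passed (1.8%; 315 higher, 1.75%, and 9 lower, 0.05%). Of the 648 genes higher in tail bud, 106 were also higher in heart, 191 in the rest of the embryo and 73 in all 3 tissues. None of the 648 passed in the opposite direction. Of the 299 lower genes, 6 were also lower in heart, 4 in the rest of the embryo and 0 in all 3. The median log2 fold change of the 648 was 0.31 in tail bud, which chose them, 0.15 in heart and 0.25 in the remaining embryo. For the 299 it was -0.31, -0.03 and -0.11. Mir17hg rose by 1.76 in heart and 1.59 in the remaining embryo, Fndc3b by 0.61 and 1.02, and Znfx1 by 0.65 and 0.55.

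Whether the effect itself differs between tail bud and heart was tested by an interaction term. In 9 of 17993 genes it did (0.05%; 7 higher, 0.0389%, and 2 lower, 0.0111%, edgeR), and with the replicate number as a block 38 did (26 higher and 12 lower), including all 9. Scube1, a secreted or surface EGF-domain protein gene, was at 69.9, 88.2 and 69.5 CPM in wild-type tail bud and 125, 99.6 and 120 CPM in Δ17,18,92 tail bud. In heart it was at 63.7, 65.6 and 73.4 CPM in wild type and 51.2, 52.8 and 47.2 CPM in Δ17,18,92, so the groups were separate and in the opposite order (1.02 ± 0.15, adjusted p = 0.0173; 0.0088 with the block). Myrf, a membrane-bound transcription factor, went from 88.9, 117 and 90.9 CPM to 158, 146 and 171 CPM in tail bud. In heart it went from 77.6, 76.8 and 67.8 CPM to 71.3, 62.9 and 63.7 CPM (difference 0.84 ± 0.13, adjusted p = 0.0173). In the tail bud fit, the call of Myrf against wild type held only without wild-type replicate 2. The other fits without 1 library gave adjusted p from 0.0586 to 0.132 (edgeR). Ptgfrn, an immunoglobulin-domain membrane protein gene, went from 245, 241 and 199 CPM to 320, 322 and 323 CPM in tail bud, while its heart libraries overlapped at 403 to 448 CPM (0.53 ± 0.09, adjusted p = 0.0431).

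Col23a1, a transmembrane collagen gene, differed by 0.52 between the tissues (adjusted p = 0.0431, edgeR). Efhd2, a calcium-binding protein gene, fell in tail bud from 28.0, 27.6 and 31.3 CPM to 21.1, 22.2 and 22.3 CPM and was at 200 to 223 CPM in both genotypes in heart (-0.46 ± 0.08, adjusted p = 0.0431). Clip4, a microtubule-binding protein gene, was at 39.5, 40.2 and 45.4 CPM in wild-type heart and 75.9, 73.5 and 64.9 CPM in Δ17,18,92 heart. In tail bud it lay at 5.49 to 7.16 CPM over both genotypes (-0.73 ± 0.13, adjusted p = 0.0459). The other 3 genes of the 9 are 2 without a symbol and the RNA gene Gm23833. A fit of only these 2 tissues called 0 genes. Like the main fit, neither it nor the fits without 1 library used the block. None of the 9 kept its call in all 12 fits without 1 library, and 0 genes passed without wild-type heart replicate 2 or 3 or without Δ17,18,92 tail bud replicate 1. The number was 3 without wild-type heart replicate 1, 5 and 16 without Δ17,18,92 heart replicates 2 and 3, 14 without wild-type tail bud replicate 2 or 3 and 4 without Δ17,18,92 tail bud replicate 2. Between tail bud and the rest of the embryo 0 genes passed in edgeR, 736 had an unadjusted p under 0.05 and DESeq2 called 8.

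**Figure D5:**
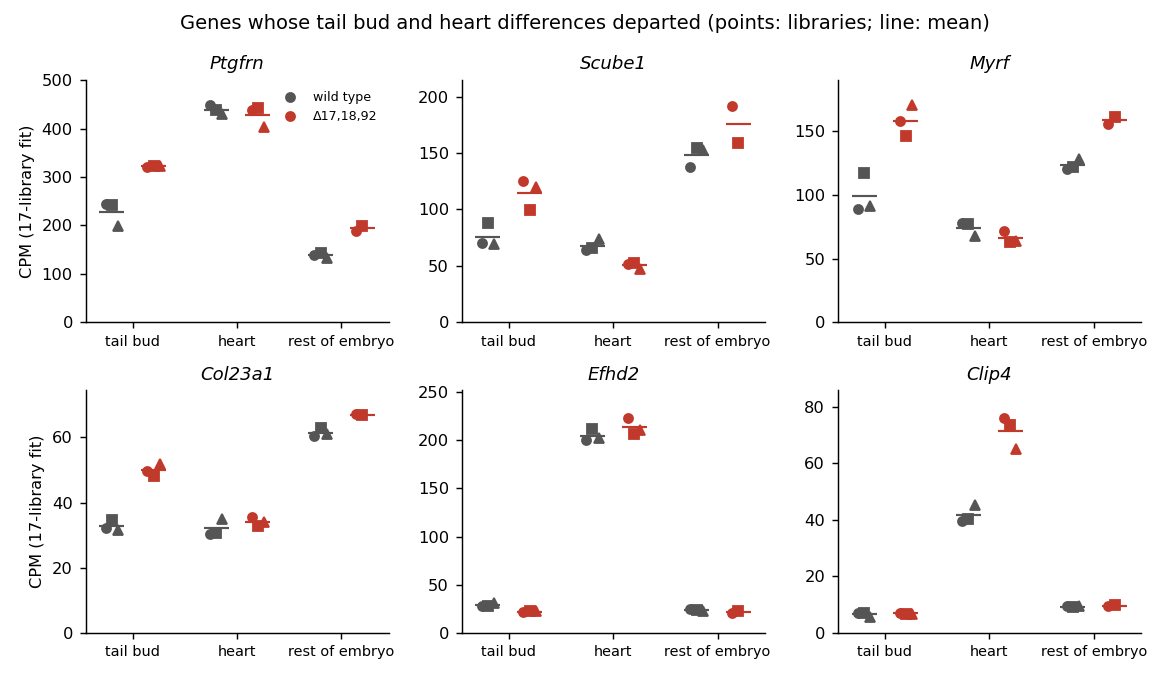
CPM (vertical axis, from 0, 17-library fit) of 6 genes in tail bud, heart and rest of embryo; grey is wild type, red is Δ17,18,92, points are libraries and lines are means (2 libraries for Δ17,18,92 in the rest of the embryo). Scube1 and Myrf are higher in Δ17,18,92 in tail bud and lower in most heart libraries, and the Δ17,18,92 libraries of Clip4 stand above wild type in heart (64.9 to 75.9 against 39.5 to 45.4).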

How the data were processed

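The deposited table holds whole-number read counts per gene for 71 libraries, made by the authors. The tools were featureCounts (Subread 1.4.2), STAR 2.3.0 and SAMtools 0.1.14, with mm9 and NCBIM37 as builds, per the submitters' processing notes. Not given in the sources used here are the annotation release, the strand setting and the treatment of reads with several matches. Counts were tested with edgeR 4.0.16 (quasi-likelihood, TMM scaling, filterByExpr, R 4.3.3, limma 3.58.1) with Benjamini-Hochberg adjustment over all tested genes and a threshold of 0.05. The tail bud fit held all 24 tail bud libraries, which share 1 estimate of the spread (biological coefficient of variation 8.74%), and the tissue fit 17 libraries (8.84%). Scripts were tested on simulated data. The CPM values of the 6 libraries rest on totals of 15134178 to 27451024 counts. The p-values measure the spread between the deposited samples.

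The members and gene lists were chosen with earlier results of these data known. Named genes were a fixed set around the locus, up to 12 per direction by fold change (log2 CPM averaging 2 or more, no overlap between groups), up to 4 per list by smallest p (2 where none passed), up to 4 per seed family by smallest p, and up to 4 per direction in each other contrast. A few of the genes so chosen are not reported here. Symbols were matched by identifier for 32897 of 37620 genes and 3′ UTRs for 19730 (GENCODE M21, GRCm38, a different build from the counts); 6 of 6 microRNA names matched RefSeq. Alternatives were DESeq2 1.42.0, RLE factors, other filters, fewer libraries, a replicate block and leaving out each library. Same-numbered tail bud and heart libraries deviated together (correlations of 0.373, 0.439 and 0.619 in Δ17,18,92 and 0.363, 0.537 and 0.183 in wild type), so their numbers were taken as pairs. Only the replicate block used these pairs. The main tissue fit, the fit of only 2 tissues and the tissue fits without 1 library did not. Genes shared by tail bud and heart are thus not an independent replication. For the rest of the embryo pairing was undecided, so genes shared there are not taken as independent replication either. Tables were written with Python 3.11.15 and pandas 2.3.3 and figures with matplotlib 3.10.9.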

Additional observations from a re-analysis of the deposited data

Results flagged for a closer look

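In 6 named genes the Δ17,18,92 effect differed between tail bud and heart by a test of the difference itself (edgeR interaction term). The tail bud effect minus the heart effect, on the log2 scale, was 1.02 for Scube1, 0.84 for Myrf, 0.53 for Ptgfrn and 0.52 for Col23a1. It was -0.46 for Efhd2, which fell in tail bud, and -0.73 for Clip4, which rose in heart. With the replicate number as a block all 6 stayed past the threshold, with adjusted p from 0.0088 to 0.0388 (edgeR). In a fit of only the 2 tissues, without the block, none did, with adjusted p from 0.0867 to 0.285.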

How the results depend on the processing

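With only the 6 libraries compared, 79 genes passed against wild type in place of 947, and leaving out 1 library gave 472 to 2032. Against Δ17,18 (114) DESeq2 gave 205, only 6 libraries 181 and leaving out 1 library 55 to 113. Against Full-KO (58) these were 120, 104 and 27 to 39. For the departure from the sum of single alleles (1), no filter and a mean log2 CPM of at least 3 gave 0, DESeq2 2 and leaving out 1 library 0 to 1. For tail bud minus heart (9), no filter gave 28, a mean log2 CPM of at least 3 gave 4, DESeq2 67, the replicate block 38, only 2 tissues 0 and leaving out 1 library 0 to 16. For tail bud minus the rest of the embryo (0), no filter gave 2, DESeq2 8 and leaving out 1 library 0 to 2. The causes were not tested. The median of the visceral endoderm list had no value at a mean log2 CPM of at least 3, as no member was left.

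Same-numbered tail bud and rest-of-embryo libraries correlated at 0.324, 0.67 and 0.237 in wild type but at 0.23 and 0.0452 in Δ17,18,92. The numbers were not taken as pairs there, but with 2 Δ17,18,92 libraries the correlations cannot decide whether they are. With a replicate block 0 genes passed, as without it. In the tail bud comparisons the numbers pair no samples, and with a block the counts were 935 against wild type, 105 against Δ17,18 and 53 against Full-KO. Of 80 named genes past the threshold, 80 stayed so with DESeq2, 80 with RLE factors, 75 with the block, 71 with no filter, 25 with only 6 libraries and 46 in each fit without 1 library. Some log2 fold changes against wild type turned direction, none of them past the threshold in the full fit. Over the fits without 1 library, Gpc5 ran from -0.12 to 1.34, Mcm7 from -0.11 to 0.066, Myl4 from -0.91 to 0.16 and Clip4 from -0.045 to 0.11, each turning without wild-type replicate 3. Snn ran from -0.0054 to 0.14 and Tcf19 from -0.017 to 0.18, turning without wild-type replicate 1. Uhmk1 ran from -0.092 to 0.043, turning without wild-type replicate 1 (0.016) or 2. Xist ran from -7.15 to 4.4, turning without wild-type replicate 2 or without Δ17,18,92 replicate 1 or 2 (0.21).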
